A study of Mus musculus with 367 samples.

Results

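The genes described here build and anchor the actin cytoskeleton. They are 42 of the 50600 genes in the matrices of single tdTomato-high wound cells. They were chosen by name for their known function in actin filaments, nonmuscle myosin and focal adhesions. No measured value entered the rule, but earlier results of these data were known when it was set. All 42 were found in the matrices. By role they comprise 2 actins, 5 proteins of actin turnover and monomer binding, 11 filament crosslinkers and binding proteins, 6 members of the nonmuscle myosin machinery, 9 proteins of the focal adhesion plaque, 8 LIM domain proteins and the transcription factor Srf.

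The cells came from Sm22-Cre;tdTomato mice of mixed background, 3 to 8 weeks old according to the sample labels, with square excisional wounds of 1.5 cm on the back. In these mice Cre is driven by the promoter of Tagln (Sm22), so that tdTomato marks any cell in which this promoter has been active, whether or not Tagln is still expressed. Every group carried the same alleles and the same wound, and in the labels the groups differed only in the day. The age range was labelled for all days together. Tissue of 2 to 3 wounds per time point was dissociated, viable tdTomato-high cells were sorted and captured singly on a C1 microfluidic chip, and full-length cDNA was sequenced. There were 3 captures at post-wounding day (PWD) 12, 2 at PWD 15 and 2 at PWD 21, with 367 cells in all. Each capture held cells of a single day, so that differences between days cannot be told apart from those between sets of captures. Unwounded skin and tdTomato-negative cells were not analysed here. Because the tissue of several mice was pooled and the mouse behind a capture is not stated, the capture was used as the replicate, and its spread may be technical.

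Actin filaments grow from monomers that are held in reserve by thymosins and profilin and are cut back by cofilin. Alpha-actinins, filamins, palladin and tropomyosins bundle or coat the filaments, and nonmuscle myosin II pulls on them once its light chain has been phosphorylated, which in smooth muscle cells is the task of the kinase Mylk. At focal adhesions, talin, kindlin, vinculin, paxillin and the complex of Ilk with parvin join the filaments to integrins. In wounds this machinery is known from contractile fibroblasts, from mural cells around vessels and from migrating myeloid cells. Many of its genes are known targets of Srf, a transcription factor that responds to the pool of free actin monomers.

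Expression is given as FPKM, fragments per kilobase of transcript and per 1000000 mapped fragments, so that levels can be compared between genes. The estimated depth was a median of 945517 to 2344276 fragments and 4845 to 6233 genes per cell in the 7 captures, and by kind a median of 1446341 fragments in matrix, 1231184 in mural and 2106773 in myeloid cells. The median was 1251042 to 2085485 fragments in the PWD 12 captures and 974312 and 945517 in those of PWD 15. It was 2153299 and 2344276 in those of PWD 21. Cells could not be brought to a common depth, which bears on every share of cells with a detected gene. After the limits on fragments, genes and mitochondrial share, 292 cells remained. Of these, 198 were matrix cells (Col1a1 of at least 1000 FPKM, Rgs5 under 100, Tyrobp under 50), 57 were mural cells (Rgs5 of at least 500, Tyrobp under 50), 26 were myeloid cells (Tyrobp of at least 500) and 11 met none of these definitions. The 3 genes of these definitions are not among the 42. Left out of their own marker lists, they leave 5 mural markers that summed to 248 to 809 FPKM per capture in mural cells and 1.21 to 12.5 in matrix cells, and 7 myeloid markers that summed to 17291 to 28954 FPKM in myeloid cells against at most 67.2 in matrix and 53.5 in mural cells. The other 6 matrix markers summed to 17102 to 32520 FPKM in matrix cells, but also to 3924 to 12760 in mural and 67.95 to 10741 in myeloid cells, and 19 of the 57 mural and 4 of the 26 myeloid cells held at least 1000 FPKM of Col1a1. The 4 smooth muscle markers reached 38.4 to 439 FPKM in mural and 0.0100 to 102 in matrix cells. Whether RNA of a second cell contributed to these values was not tested.

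Most of the machinery was expressed in all 3 kinds of cell, over a wide range of levels. In matrix cells the median of the 7 capture means was at least 1000 FPKM for 3 of the 42 genes, between 100 and 1000 for 13, between 10 and 100 for 18 and below 10 for 8. Beta-actin (Actb) stood first with a median of 9211 FPKM, followed by gamma-actin (Actg1) with 1431 and the myosin essential light chain Myl6 with 1296. Actb also stood first in mural cells, with a median of 6612, and in myeloid cells, with 13735. At the low end, Synpo2, Pdlim3 and Pxn had medians under 1 FPKM in matrix cells. Pdlim3, a LIM protein of muscle Z-discs, was detected in 6 of 198 matrix, 2 of 57 mural and 0 of 26 myeloid cells, and with 3 counts taken as the limit that a count of 0 allows, 0 of 26 leaves a share of up to 11.5%, for counting error only.

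**Figure D1:**
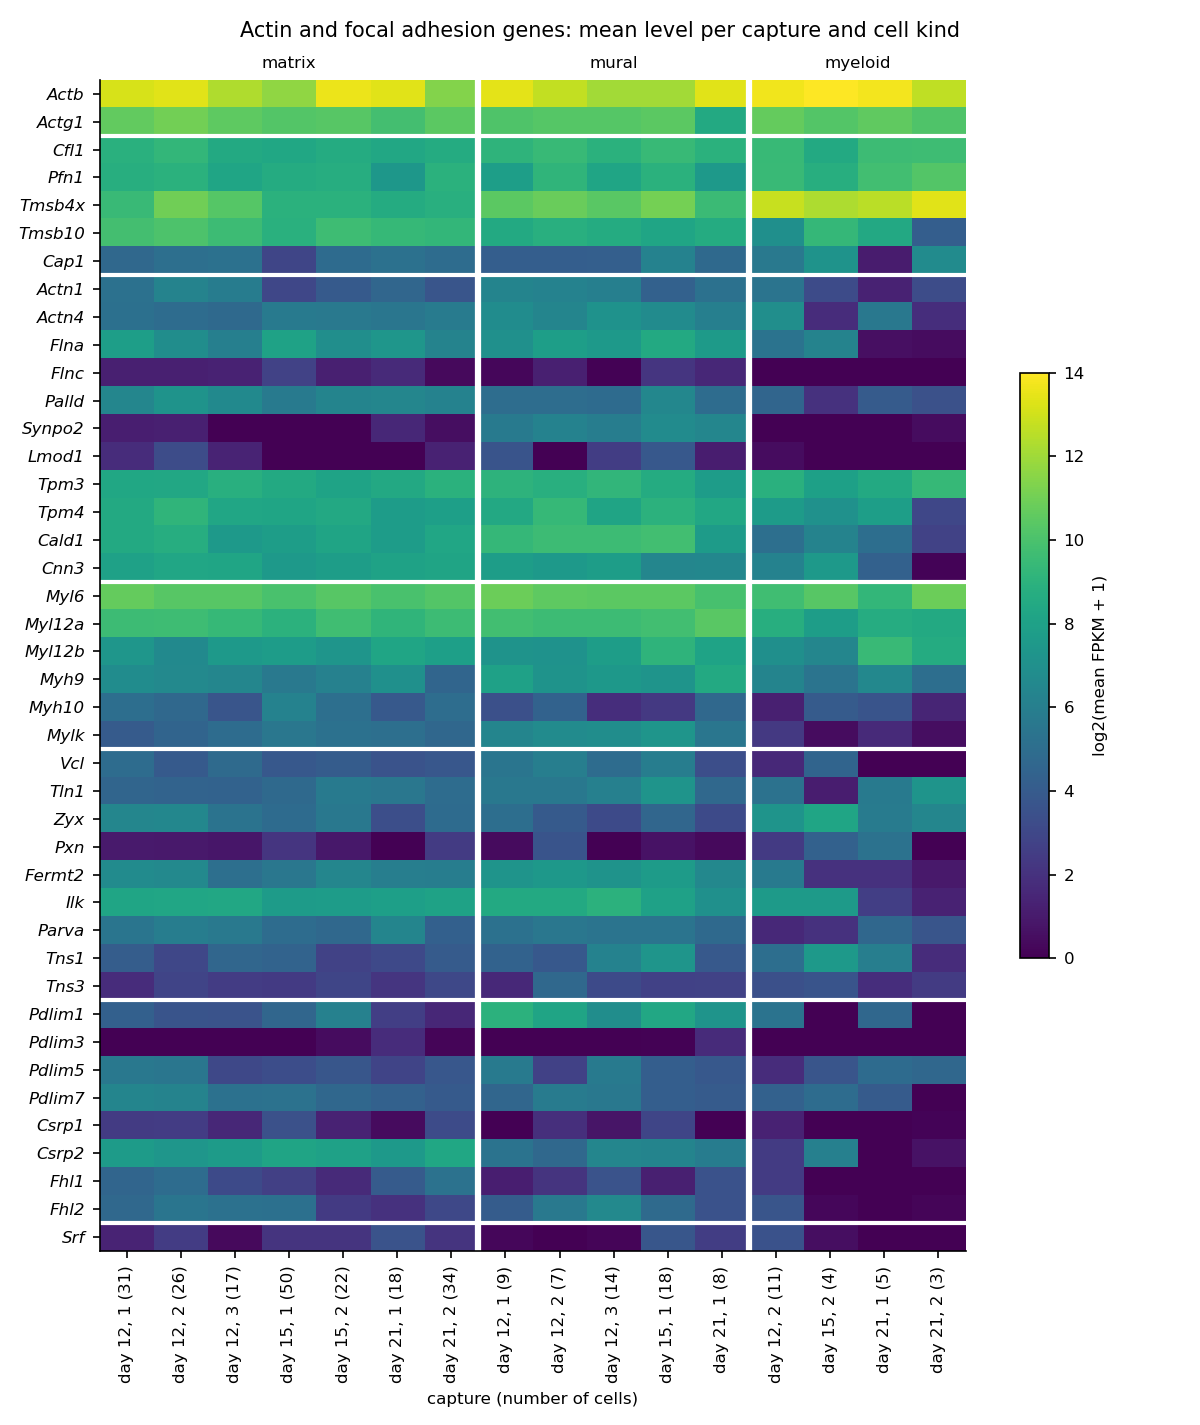
Mean level of the 42 genes, as log2(mean FPKM + 1), in each capture with at least 3 cells of a kind; columns are captures labelled by day, capture number and number of cells, and rows are genes in the order of their roles. Actb is the brightest row in matrix cells, Tmsb4x brightens in the myeloid columns, and Synpo2 and Pdlim1 stand out in the mural columns.

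Mural cells differed from matrix cells in the same captures in a few genes and strongly so. This comparison used the 5 captures with at least 3 cells of both kinds, and each difference is that of log2(mean FPKM + 1) within a capture, fitted with limma over all genes in a model that also holds a term for each capture. Of the 41 genes tested, 2 rose (Synpo2 and Pdlim1) and 2 fell (Csrp2 and Tmsb10) in mural cells at an adjusted p under 0.05. These 4 are 9.76% of the set, whereas 1.71% of all 13823 genes tested were called, 0.948% as higher and 0.76% as lower. At an unadjusted p under 0.05 there were 16 members (39%, against 14.3% of all genes). Both shares of the set count Synpo2, which reached the level needed for a test only through the mural cells. Pdlim3 was below that level. The median difference of the 41 genes was 0.30 and that of all genes -0.22, so that a gene at 0 lay above the median gene. Among the 1168 genes whose mean reached 100 FPKM the median was 0.11, and a gene at 0 lay below it.

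Synpo2 encodes synaptopodin-2, an actin-bundling protein of muscle Z-discs and smooth muscle. Its mean in matrix cells of PWD 12 captures 1, 2 and 3, PWD 15 capture 1 and PWD 21 capture 1 was 1.27, 1.35, 0.00882, 0.0122 and 1.97 FPKM. In the mural cells of the same captures it was 52.6, 72.5, 59.1, 105 and 83.7 FPKM. The groups did not overlap, and all 5 mural means exceeded every matrix mean. The difference was 5.39 on the log2 scale (SE 0.61, 95% interval 4.05 to 6.74, adjusted p = 0.00221), higher in 5 of 5 captures. With a mean of 0.922 FPKM in these matrix cells, Synpo2 reached the level needed for a test only through the mural cells. The high mean came from part of the cells: Synpo2 was detected in 34 of 57 mural cells (59.6%) and in 15 of 198 matrix cells (7.58%), with 1 of 26 myeloid cells (3.85%) as a kind not known to use it, and the highest mural cell of each capture held between 310 and 681 FPKM. Myeloid cells lay at 0 in 3 of 4 captures and at 0.393 FPKM in the other. The gene lies on chromosome 3 of GRCm38 from 123076519 to 123236149 on the minus strand.

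Pdlim1 (chromosome 19, 40221173 to 40271842, minus strand) encodes a PDZ and LIM protein, also known as CLP36 or Elfin, that binds alpha-actinin on stress fibres. In the same order of captures its matrix means were 18.3, 11.2, 10.9, 23.6 and 4.95 FPKM. Its mural means were 514, 283, 116, 336 and 153 FPKM. Here again no mural mean fell within the matrix range, and the difference was 4.21 (SE 0.44, 95% interval 3.24 to 5.18, adjusted p = 0.00143), higher in 5 of 5 captures. Pdlim1 was detected in 75.4% of mural, 28.3% of matrix and 19.2% of myeloid cells. Its relatives of the same family did not share this pattern. Pdlim5 differed by 0.38 (95% interval -1.31 to 2.07) and Pdlim7 by -0.66 (95% interval -1.77 to 0.45), and neither passed the test. Synpo2 and Pdlim1 were called in each of the 18 alternatives, the fits without any 1 capture and with mural cells under 1000 FPKM of Col1a1 included.

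**Figure D2:**
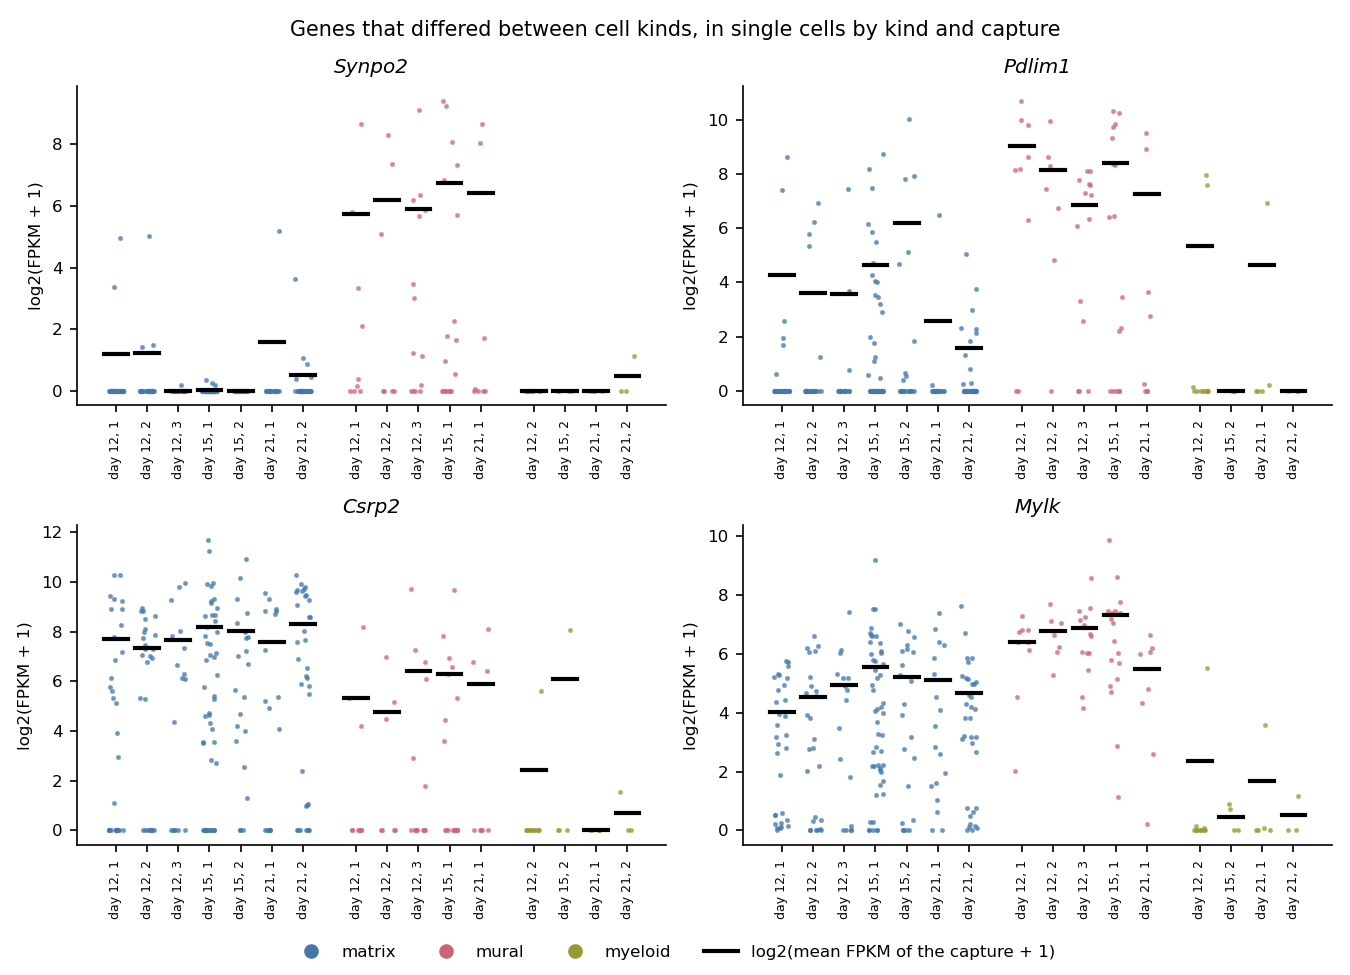
Synpo2, Pdlim1, Csrp2 and Mylk in single cells, as log2(FPKM + 1), by kind and by capture with at least 3 cells of the kind; dots are cells and the black bar is log2(mean FPKM of the capture + 1). Pdlim1 reaches high values in many mural cells and Synpo2 in a smaller part of them, and both do so in few other cells. The median mural cell of a capture held 0 to 4.26 FPKM of Synpo2. Csrp2 is highest in matrix cells, and the means of Mylk run from 44.2 to 159 FPKM in mural, 15.4 to 46.4 in matrix and 0.383 to 4.09 in myeloid cells.

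Csrp2 showed the opposite order. It encodes CRP2, a cysteine-rich LIM protein of smooth muscle and mesenchymal cells that associates with actin and with Srf. Over the 7 captures its matrix means ran from 161 to 318 FPKM with a median of 206. Its mural means were 38.6, 26.01, 83.6, 77.6 and 58.4 FPKM, all below the lowest matrix mean, and the difference was -1.96 (SE 0.36, 95% interval -2.77 to -1.15, adjusted p = 0.0273), lower in 5 of 5 captures. The call was lost when PWD 12 capture 1, 2 or 3 or PWD 15 capture 1 was left out, with adjusted p between 0.066 and 0.107, while the difference stayed between -1.81 and -2.14. Restricted to mural cells with Col1a1 under 1000 FPKM, it was -2.43 (adjusted p = 0.0649). Csrp1, which encodes a related protein, was low throughout, with a median of 4.42 FPKM in matrix cells and 0.706 in mural cells, and did not pass the test.

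Tmsb10 and Tmsb4x encode thymosin beta-10 and beta-4, small proteins that sequester actin monomers. In the 5 captures Tmsb10 had matrix means of 916, 1084, 763, 479 and 671 FPKM and mural means of 365, 454, 396, 300 and 386 FPKM. All mural means lay below all matrix means, and the difference was -0.998 (SE 0.20, 95% interval -1.45 to -0.55, adjusted p = 0.0414), lower in 5 of 5 captures. Without any 1 capture the adjusted p was 0.0542 to 0.166, and with the columns centred on the median gene the difference was -0.67 (adjusted p = 0.153), so this call rested on the full set and on the scaling. Tmsb4x had mural means of 1438, 1802, 1365, 2137 and 735 FPKM beside matrix means of 724, 1965, 1257, 496 and 388. It was higher in 4 of 5 captures by 0.80 (95% interval 0.17 to 1.43) and did not pass the test (adjusted p = 0.222). Within cells, Tmsb4x exceeded Tmsb10 in 86 of 198 matrix cells (43.4%), in 49 of 57 mural cells (86.0%) and in 26 of 26 myeloid cells, shares that were not tested. By capture they ran from 27.3% to 84.6% in matrix cells, highest in PWD 12 capture 2, and from 37.5% to 100% in mural cells, lowest in PWD 21 capture 1, so that both kinds overlapped.

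The other roles gave no call between mural and matrix cells, although some members lay on the same side in every capture. In all, 6 of the 41 genes were lower in mural cells in 5 of 5 captures (14.6%, against 8.47% of all genes). There were 8, Synpo2 among them, that were higher in 5 of 5 (19.5%, against 4.73%). Among the nonmuscle myosin genes these were Mylk, with a mean of 102 FPKM in mural and 29.5 in matrix cells (difference 1.73, 95% interval 0.71 to 2.76, adjusted p = 0.108), and Myh9, the heavy chain of myosin IIA, with 218 and 94.3 FPKM (difference 1.18, 95% interval 0.45 to 1.90, adjusted p = 0.119). Myh10, the heavy chain of myosin IIB, lay in the other direction in 4 of 5 captures, at 12.3 FPKM in mural and 31.7 in matrix cells (difference -1.40, 95% interval -3.00 to 0.20, adjusted p = 0.419). The reads of Myl12a and Myl12b, near-identical genes, are shared by estimation. The light chains Myl6, Myl12a and Myl12b differed by 0.18, 0.45 and 0.37, none past the test. Of the crosslinkers, Actn4 (alpha-actinin 4) was 1.39 higher in mural cells in 5 of 5 captures (adjusted p = 0.169), and Cald1 (caldesmon) was 1.13 higher in 4 of 5 (adjusted p = 0.13). Of the plaque proteins, Fermt2 (kindlin-2) and Tns1 (tensin-1) had differences of 1.20 and 1.29 and Zyx (zyxin) one of -1.33, with adjusted p of 0.209, 0.33 and 0.318. The tropomyosins Tpm3 and Tpm4, filamin A (Flna), the monomer-recycling protein Cap1 and tensin-3 (Tns3) differed by 0.19, 0.30, 0.48, 0.09 and 0.65. Calponin-3 (Cnn3) was lower in mural cells in 5 of 5 captures, at 158 FPKM against 262 in matrix cells (difference -0.82, adjusted p = 0.256).

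**Figure D3:**
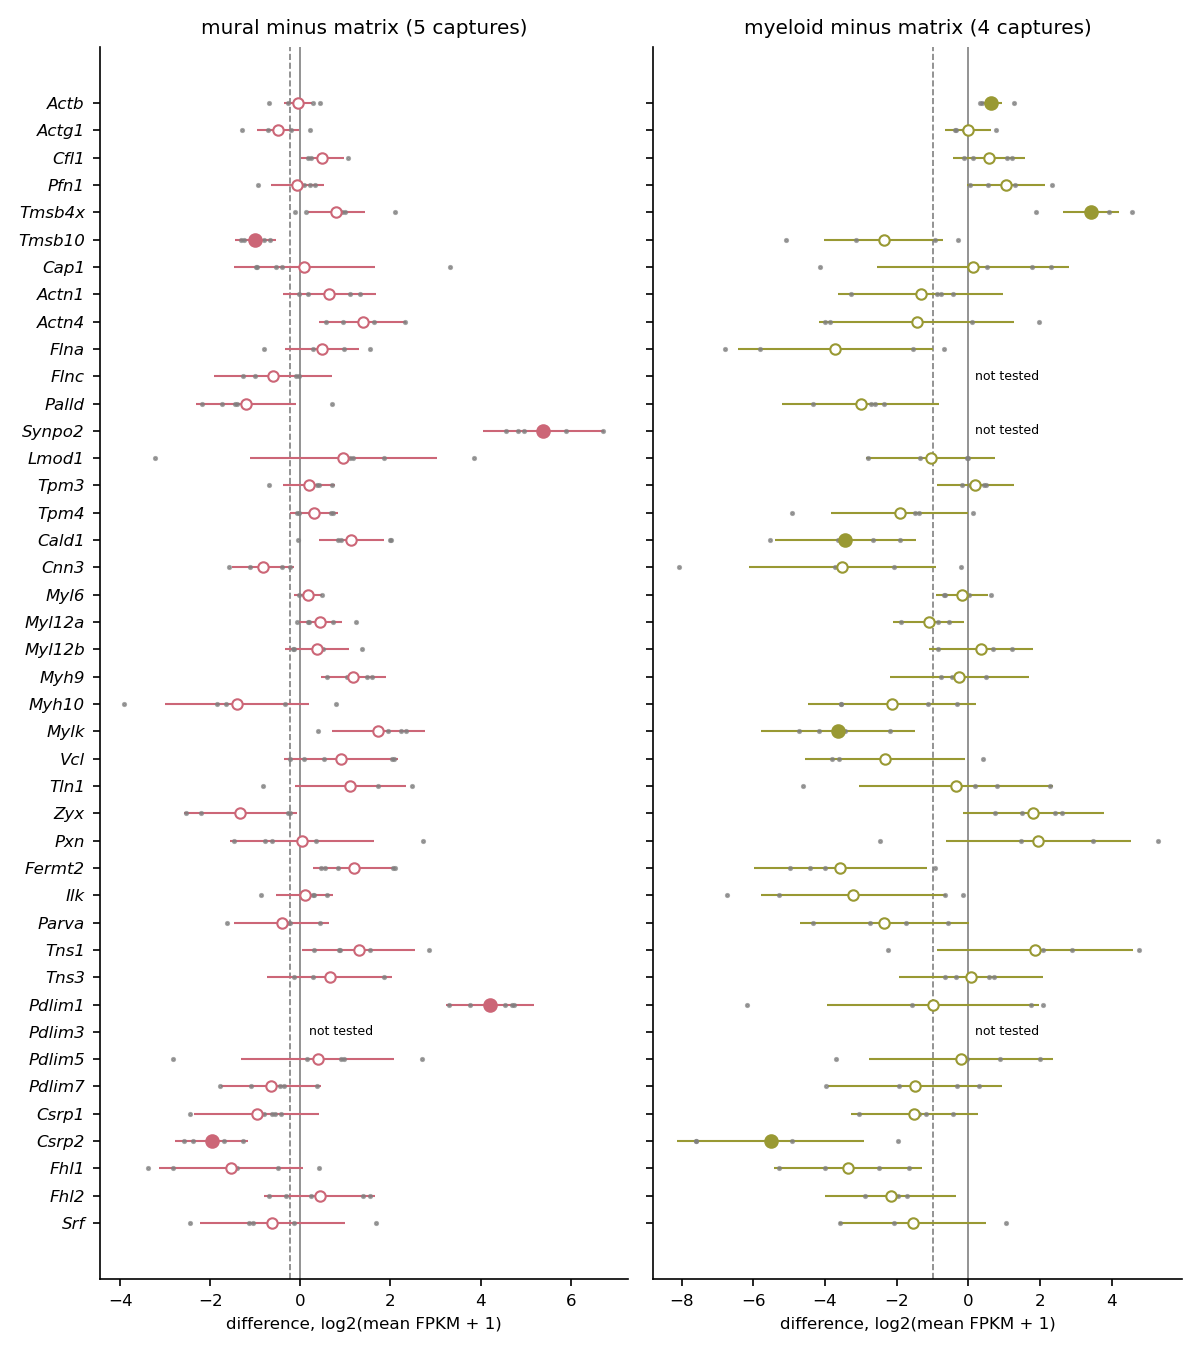
Difference of mural from matrix cells (left, 5 captures) and of myeloid from matrix cells (right, 4 captures) for each gene, in log2(mean FPKM + 1). Large circles are the fitted difference (filled where the adjusted p is under 0.05), lines its 95% interval, small dots the captures, the solid line 0 and the dashed line the median of all genes tested, at -0.22 and -0.9985. Synpo2 and Pdlim1 lie far to the right of the other genes on the left panel, and Tmsb4x is the rightmost on the right panel.

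Myeloid cells differed from matrix cells in 5 genes of the set. This comparison used 4 captures (PWD 12 capture 2, PWD 15 capture 2, PWD 21 captures 1 and 2) with 11, 4, 5 and 3 myeloid cells. Of the 39 genes tested, 2 rose in myeloid cells (Tmsb4x and Actb) and 3 fell (Csrp2, Mylk and Cald1). The 5 calls are 12.8% of the set, against 6.59% of all 13059 genes, 1.69% as higher and 4.9% as lower. At an unadjusted p under 0.05 there were 16 members (41%, against 27.5% of all genes). Flnc, Synpo2 and Pdlim3 were too low for a test. The median difference of all genes tested was -0.9985 and that of the 39 was -1.33, while among the 1204 genes whose mean reached 100 FPKM it was -0.03. Relative to the median of all genes, the difference of Tmsb4x was 4.42 and that of Actb 1.64. Both genes lay above 100 FPKM, and -0.03 is the median for genes of that level.

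Tmsb4x was the second most abundant of the 42 genes in myeloid cells. Its myeloid means were 7283, 4966, 5904 and 10623 FPKM, and the matrix means of the same captures were 1965, 494, 388 and 450 FPKM. The groups did not overlap, and the difference was 3.42 (SE 0.35, 95% interval 2.65 to 4.20, adjusted p = 0.000453), higher in 4 of 4 captures. It passed the test in 14 of 15 alternatives and failed only without a filter on low values (adjusted p = 0.171), where no gene of the set was called. The gene lies on the X chromosome from 167207093 to 167209315 on the minus strand. Its relative Tmsb10 (chromosome 6, 72957347 to 72958748, minus strand) had myeloid means of 123, 652, 354 and 17.1 FPKM beside matrix means of 1084, 802, 671 and 616, lower in 4 of 4 captures (difference -2.36, 95% interval -4.01 to -0.70) but not past the test (adjusted p = 0.0773). The ratio of Tmsb4x to Tmsb10 was 7.62 to 622 in the myeloid cells of these 4 captures, 1.91 to 7.12 in the mural cells of 5 captures and 0.578 to 1.81 in the matrix cells of 7.

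Actb was higher in myeloid cells, at 13433, 18349, 14038 and 6564 FPKM beside 10721, 12237, 10682 and 2710 in matrix cells of the same captures. The ranges overlapped between captures, but within each capture the myeloid mean was the higher, and the difference was 0.64 (SE 0.14, 95% interval 0.35 to 0.94, adjusted p = 0.0268). The call was lost in 8 of 15 alternatives: without PWD 21 capture 2 the adjusted p was 0.0513, without the term for the capture it was 0.36, and with cells rescaled without the mitochondrial genome the difference was 0.27 (adjusted p = 0.209). Actg1 did not differ detectably, at -0.01 (95% interval -0.65 to 0.63). Cofilin (Cfl1) and profilin (Pfn1), which turn filaments over and feed monomers to them, had myeloid means of 659 and 806 FPKM and matrix means of 432 and 393, with adjusted p of 0.427 and 0.191.

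The genes that fell are known from smooth muscle and mesenchymal cells. Csrp2 had myeloid means of 4.39, 66.4, 0 and 0.63 FPKM beside 161, 259, 191 and 318 in matrix cells, a difference of -5.51 (SE 1.19, adjusted p = 0.0279). Cald1 had 33.2, 76.9, 32.1 and 5.81 beside 422, 290, 210 and 311, a difference of -3.43 (SE 0.90, adjusted p = 0.0462), and Mylk had 4.09, 0.383, 2.20 and 0.423 beside 22.04, 35.8, 33.7 and 24.8, a difference of -3.63 (SE 0.98, adjusted p = 0.0492). In all 3 genes every myeloid mean lay below every matrix mean. Their calls were fragile: Cald1 and Mylk were lost without any 1 of the 4 captures (adjusted p of 0.0711 to 0.14 and 0.083 to 0.135), and Csrp2 without PWD 12 capture 2, PWD 21 capture 1 or PWD 21 capture 2 (0.0716 to 0.0867). The myeloid cells of PWD 15 capture 2 held the most Csrp2 and Cald1 among these 4. They also held the most Col1a1, with a mean of 4533 FPKM. That of PWD 12 capture 2 was 214.7, that of PWD 21 capture 1 was 1248 and that of PWD 21 capture 2 was 23.84. Whether RNA of matrix cells contributed to these levels was not tested.

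The adhesion plaque split in myeloid cells, with no call. Kindlin-2 (Fermt2) was lower in 4 of 4 captures (difference -3.57, adjusted p = 0.07), as was Ilk (difference -3.21, adjusted p = 0.111), which was at 197 and 196 FPKM in PWD 12 capture 2 and PWD 15 capture 2 and at 5.15 and 1.50 in both PWD 21 captures. Zyx was higher in 4 of 4 captures, at 151, 297, 54.6 and 83.5 FPKM against a mean of 43.97 in matrix cells (difference 1.82, 95% interval -0.16 to 3.80, adjusted p = 0.218). Talin-1 (Tln1), which ties integrins to actin, differed by -0.34 with an interval of -3.04 to 2.37, too wide to read a direction. Flna and Cnn3 were also lower in 4 of 4 captures (differences -3.71 and -3.51, adjusted p = 0.087 and 0.0903). Of the 39 genes, 16 were lower in myeloid cells in 4 of 4 captures (41%, against 26.4% of all genes) and 4 were higher (10.3%, against 5.34%).

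The actins are often used as a reference for other genes, and their own level varied between captures. The mean of Actb in matrix cells was 9211, 10721 and 5130 FPKM in the 3 captures of PWD 12, 3226 and 12237 at PWD 15, and 10682 and 2710 at PWD 21. PWD 15 capture 1 and PWD 21 capture 2 were low and the other capture of the same day was high. At PWD 15 the highest of 50 matrix cells of capture 1 held 6539 FPKM and the lowest of 22 cells of capture 2 held 6591. At PWD 21 single cells overlapped, with up to 6104 FPKM in the low capture and down to 4693 in the high one. The ratio of the highest to the lowest capture was 4.51 for Actb and 5.06 for Tmsb4x, and these were the 2 of 14 members with at least 100 FPKM in every capture whose ratio reached 4, as it did in 4.71% of the 658 genes at that level. The median ratio was 2.08 for the 14 members and 2.14 for the 658 genes. Actg1 varied less, with a ratio of 2.32, so that Actb exceeded Actg1 by 1.89 times in matrix cells of PWD 21 capture 2 and by 11.8 times in those of PWD 21 capture 1. In mural cells of PWD 12 captures 1, 2 and 3, PWD 15 capture 1 and PWD 21 capture 1 the Actb mean was 11160, 6612, 4251, 4336 and 10672 FPKM. Within these captures the mural mean was higher in 2 and lower in 3, with differences from -0.70 in PWD 12 capture 2 to 0.43 in PWD 15 capture 1. The fitted difference was -0.05 (95% interval -0.36 to 0.26), with a sign that turned under 4 of 18 alternatives. Both actins have near-identical coding sequences and pseudogenes, and the share of reads given to each rests on the estimate of the authors' software.

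**Figure D4:**
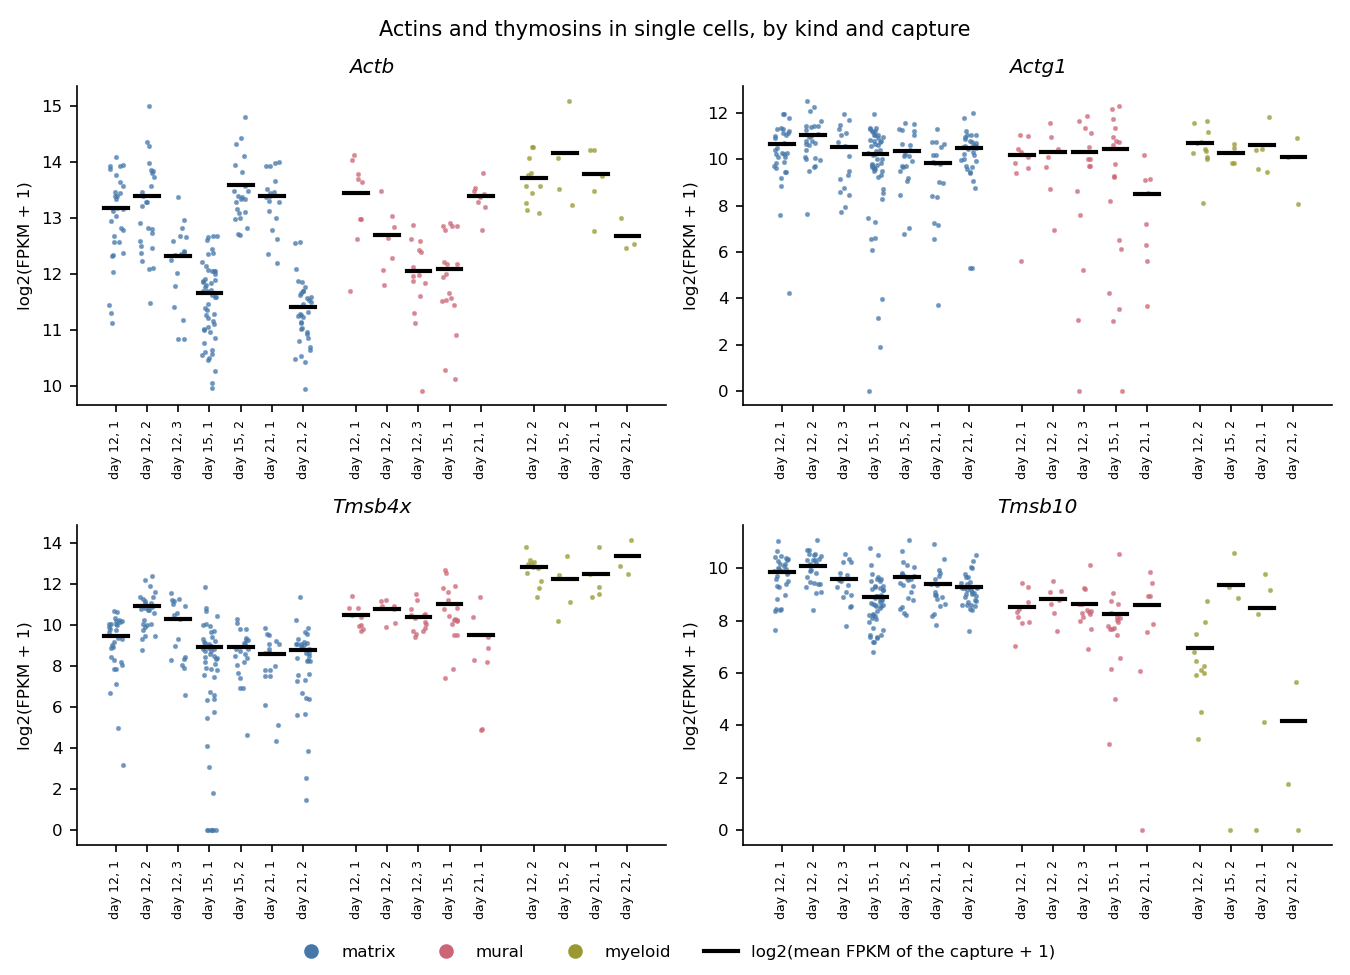
Actb, Actg1, Tmsb4x and Tmsb10 in single cells, as log2(FPKM + 1), by kind and by capture with at least 3 cells of the kind; dots are cells and the black bar is log2(mean FPKM of the capture + 1). Actb shifts as a whole between captures of the same day, and Tmsb4x is highest and Tmsb10 most scattered in myeloid cells.

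Between the days of healing, no gene of the set changed in matrix cells past the test. The fit covered all 7 captures, 40 of the 42 genes were tested, and limma called 0 members in each of the 3 comparisons, with 0 of 13552 genes (0%) between PWD 12 and 15, 0 (0%) between PWD 15 and 21 and 1 (0.00738%) between PWD 12 and 21. At an unadjusted p under 0.05 there were 4, 2 and 8 members, or 10%, 5% and 20% of the 40, against 5.84%, 5.5% and 7.14% of all genes. The comparison of PWD 12 with PWD 21 was the fullest. Of the 40 members, 29 had a negative difference, lower at PWD 21, as had 7918 of all 13552 genes. Positive differences made up 27.5% of the members and 41% of all genes. The median difference was -0.35 for the members and -0.19 for all genes. With 2 or 3 captures a day, intervals were wide, as for Actb at -0.57 (-1.93 to 0.79).

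Of the 8 members with an unadjusted p under 0.05 between PWD 12 and PWD 21, 7 had the lower mean at PWD 21 (Tmsb4x, Actn1, Tpm4, Zyx, Pdlim1, Pdlim7 and Fhl2) and 1 the higher. That was Myl12b, a regulatory light chain of nonmuscle myosin, with 164, 97.7 and 181 FPKM at PWD 12 and 304 and 237 at PWD 21 (difference 0.91, SE 0.40, adjusted p = 0.696). Tpm4, a tropomyosin of stress fibres, went from a mean of 413 to 226 FPKM (difference -0.82, SE 0.36, adjusted p = 0.692). Tmsb4x had matrix means of 724, 1965 and 1257 FPKM at PWD 12, 496 and 494 at PWD 15, and 388 and 450 at PWD 21. All PWD 12 captures lay above all later ones, with a difference of -1.54 from PWD 12 to 21 (SE 0.39, adjusted p = 0.445) and -1.29 from PWD 12 to 15 (SE 0.39, adjusted p = 0.685). Actn1, the alpha-actinin of stress fibres, had 36.9, 74.7 and 57.4 FPKM at PWD 12, 7.04 and 14.8 at PWD 15, and 23.6 and 11.8 at PWD 21. It too did not overlap between PWD 12 and the later days, at -2.29 to PWD 15 (SE 0.63, adjusted p = 0.644) and -1.64 to PWD 21 (SE 0.63, adjusted p = 0.643). Zyx, which gathers where adhesions and stress fibres bear tension, had 85.9, 89.95 and 39.8 FPKM at PWD 12 and 9.37 and 28.6 at PWD 21 (difference -1.97, SE 0.64, adjusted p = 0.56). Its PWD 15 means of 29.2 and 47.9 overlapped with PWD 12.

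Among the LIM domain proteins, Pdlim7 and Fhl2 had their lowest means at PWD 21. Pdlim7 (enigma) had 82.6, 76.4 and 36.8 FPKM at PWD 12, 38.1 and 24.2 at PWD 15 and 19.6 and 14.8 at PWD 21 (PWD 12 to 21: -1.80, SE 0.57, adjusted p = 0.545). Fhl2, a LIM-only cofactor found at adhesions and in nuclei, had 25.9, 41.9 and 35.7 FPKM at PWD 12, 34.97 and 4.17 at PWD 15 and 2.93 and 7.23 at PWD 21 (-2.62, SE 0.86, adjusted p = 0.563). The 2 captures of PWD 15 stood apart for Fhl2, one at the level of PWD 12 and the other at that of PWD 21. Pdlim1 ran through 18.3, 11.2 and 10.9 FPKM, then 23.6 and 71.4, then 4.95 and 1.99. The difference from PWD 15 to 21 was -3.32 (SE 0.82, adjusted p = 0.669), but in PWD 15 capture 2 the median cell was at 0 and a single cell held 1046 FPKM, so that few cells carried that mean.

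**Figure D5:**
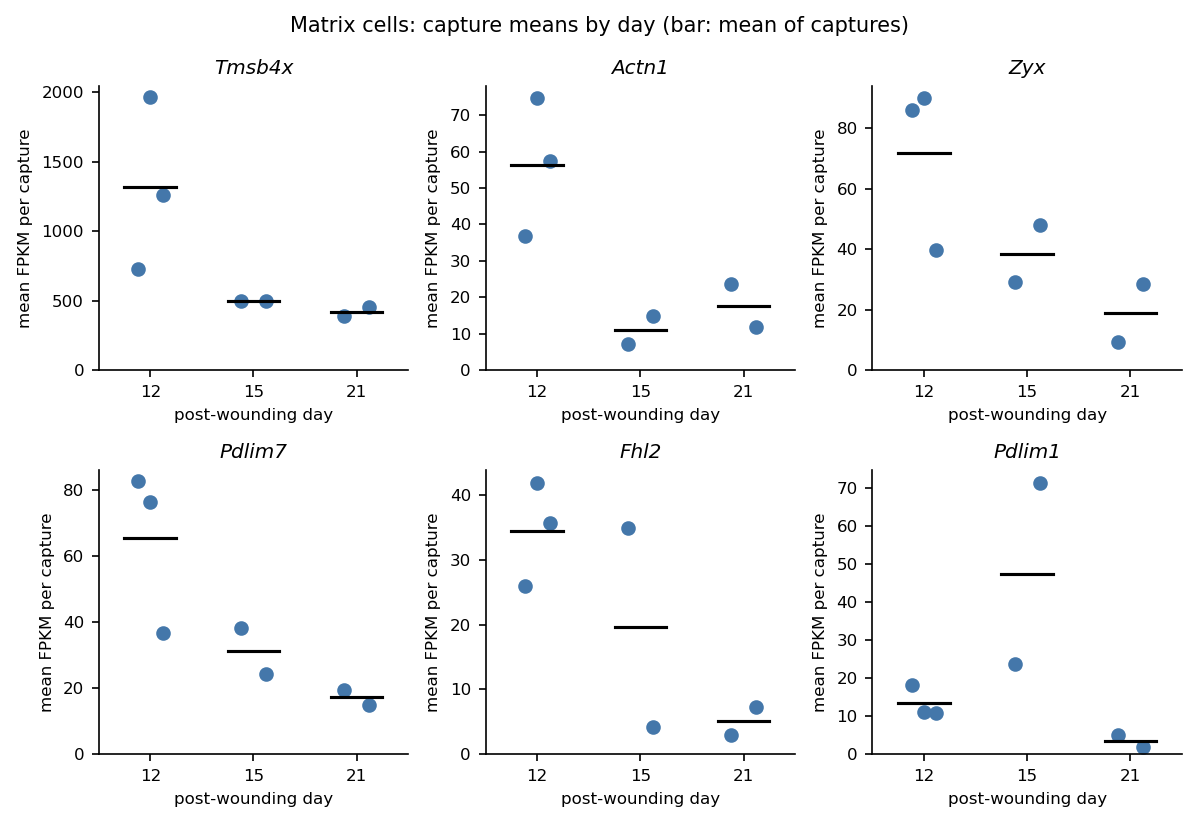
Mean FPKM of Tmsb4x, Actn1, Zyx, Pdlim7, Fhl2 and Pdlim1 in the matrix cells of each capture by post-wounding day; each point is a capture and the bar is the mean of the captures of a day. All PWD 12 captures lie above all later ones for Tmsb4x and Actn1, and none of the 6 genes passed the test.

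Counted by captures that do not overlap, 11 of 40 members were higher at PWD 12 than at PWD 15 (27.5%, against 13% of all genes) and 6 lower (15%, against 8.81%). From PWD 15 to 21 these were 8 (20%, against 16.6%) and 6 (15%, against 13.2%), and from PWD 12 to 21 they were 14 (35%, against 14.4%) and 3 (7.5%, against 7.98%). In all, 7 of the 40 members (17.5%) had all PWD 12 captures above all captures of PWD 15 and 21, and 5.11% of all genes did. They were Actg1, Tmsb4x, Actn1, Palld, Lmod1, Myl6 and Ilk. In the opposite direction 2 members (5%), Actn4 and Tln1, had all PWD 12 captures below all later ones, against 2.36% of all genes. Actn4 ran from 26.6 to 34.7 FPKM at PWD 12 and from 43.5 to 55.02 later, whereas its paralogue Actn1 ran the other way. The smooth muscle contractile genes, which mark the myofibroblast state, lay lower at PWD 21 in each of 9 tested, with a median of -1.75, and 8 of them did not overlap with PWD 12. Tagln was at 331 and 139 FPKM and Tpm1 at 360 and 72.4, and none of the 9 passed the test.

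Srf itself was low and irregular. Its matrix means ran from 0.267 to 10.9 FPKM with a median of 3.34, it was detected in 67 of 198 matrix cells, and it passed no test. The letters of its binding site could be sought in promoters, here the 250 bases before and 50 after each RefSeq start in GRCm38.p6. The site is the CArG box, a stretch of 10 bases that reads as the same pattern on both strands. Of the 42 members, 38 had a promoter entry, and 7 of these (18.4%) held a CArG box, compared with 488 of 27025 genes (1.81%). The members were chosen for their known function, and many known Srf targets are among them, so this share is a description only. The sequences of these 7 genes are shown because they are the only ones of the set in which the box was found. The box is in capitals, and each line runs in the direction of transcription.

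Actg1, chr11:120348556-120348605, minus strand: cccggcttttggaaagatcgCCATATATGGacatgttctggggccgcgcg
Vcl, chr14:20929151-20929200, plus strand: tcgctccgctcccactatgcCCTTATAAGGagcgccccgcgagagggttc
Myl6, chr10:128493030-128493079, minus strand: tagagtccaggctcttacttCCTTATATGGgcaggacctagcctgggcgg
Fermt2, chr14:45530240-45530289, minus strand: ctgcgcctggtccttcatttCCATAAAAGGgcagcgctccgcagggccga
Fhl1, chrX:56779561-56779610, plus strand: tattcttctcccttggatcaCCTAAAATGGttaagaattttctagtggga
Fhl2, first start, chr1:43196828-43196877, minus strand: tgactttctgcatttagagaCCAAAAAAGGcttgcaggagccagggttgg
Fhl2, second start, chr1:43163963-43164012, minus strand: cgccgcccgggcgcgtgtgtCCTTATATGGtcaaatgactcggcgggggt
Srf, chr17:46556195-46556264, minus strand: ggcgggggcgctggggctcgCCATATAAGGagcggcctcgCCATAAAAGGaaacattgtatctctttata

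The boxes begin between 31 and 227 bases before the start, and the promoter of Srf holds 2 of them, 82 and 62 bases before it. None of these 7 genes was called in any of the 5 comparisons. Actg1 and Myl6 were among the members with all PWD 12 captures above the later ones, and Vcl, Fermt2, Fhl1, Fhl2 and Srf were not. Tmsb4x, Actn1, Palld, Lmod1 and Ilk had this order of captures without a box in the window. The matrix means of Actg1 were 1607, 2099 and 1464 FPKM at PWD 12, 1204 and 1324 at PWD 15 and 903 and 1431 at PWD 21. None of the 6 genes that passed the test in a comparison of cell kinds and has a promoter entry (Synpo2, Pdlim1, Tmsb10, Tmsb4x, Cald1 and Mylk) held a box in its window. Actb, Pxn, Parva and Csrp2 had no entry.

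The partners of this machinery behaved unevenly. Of the 11 smooth muscle contractile genes, 5 rose in mural cells, led by Des (desmin, 4.31, SE 0.84, adjusted p = 0.0365), Myh11 (smooth muscle myosin, 3.42, SE 0.69, adjusted p = 0.0412), Actg2 (2.75, SE 0.51, adjusted p = 0.0271) and Myl9 (1.89, SE 0.37, adjusted p = 0.038), and the median of the list was 1.69. The 5 are 45.5% of the list, against 0.948% of all genes called higher. Myh11, at 0.536 FPKM in matrix cells, reached the level needed for a test only through the mural cells. In myeloid cells 3 of 9 fell, among them Myl9 by 4.79 and Tpm2 by 4.67 (adjusted p = 0.0325 and 0.0401), which is 33.3% of the list against 4.9% of all genes. The Arp2/3 complex, which nucleates branched filaments, gave no call of 9 in either comparison, and its most abundant subunit Arpc4 was at 1084 FPKM in myeloid and 337 in matrix cells (difference 1.43, adjusted p = 0.106). Of 9 leukocyte actin regulators, 3 rose in myeloid cells, namely Lcp1 (L-plastin, 6.499, adjusted p = 0.0112), Fermt3 (kindlin-3, 5.79, adjusted p = 0.00906) and Coro1a (coronin-1A, adjusted p = 0.0426). Coro1a was listed at 0 in the matrix cells of these 4 captures and at a mean of 140 FPKM in myeloid cells, higher in 3 of 4 captures. The 3 are 33.3% of the list, against 1.69% of all genes called higher, and with matrix means under 1 FPKM they reached the level needed for a test only through the myeloid cells. Of the 9 differences in this list, 7 were positive and 2 negative, the lowest at -2.85. Of Fermt3 and Fermt2, Fermt3 was the higher in myeloid cells at 64.5 FPKM, while Fermt2 was at 14.4 and at 75.4 in matrix cells, where Fermt3 was at 0.00221. Of 7 genes listed for the Srf pathway, none was called in mural cells, and of the 5 tested in myeloid cells Ccn1 fell by 4.66 (adjusted p = 0.0488). That is 20% of the 5, against 4.9% of all genes called lower.

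Cells of a kind and capture differed from each other far more for some members than for others. In matrix cells the coefficient of variation within a capture had a median over the 7 captures of 0.454 for Actb, 0.472 for Tmsb10 and 0.534 for Myh9, the steadiest 3 members. It was highest for Pdlim3 at 5.57, Lmod1 at 4.61 (both over the 5 captures with a value) and Synpo2 at 4.33 (6 captures), which are also the members with the lowest levels bar Pxn and Flnc. Across matrix cells within a capture (17 to 50 cells), Spearman's rank correlation of Actb with Tagln had a median of 0.46 over the 7 captures and was positive in 7 of 7. The median rank correlation with Tagln was at least 0.3 for 8 of the 38 members with values in every capture, with Myh9 at 0.45, Tmsb10 at 0.40 and Myl12a at 0.37, and for none of the 38 with Col1a1 or with the estimated depth. With Acta2, another smooth muscle contractile gene, it was at least 0.3 for 3 of the 38. Tmsb10 was then at 0.31 and Myh9 and Myl12a were each at 0.27. The lowest medians with Col1a1 were -0.33 for Cfl1 and -0.31 for Myl6. Csrp2 had the lowest median with Tagln, at -0.11. Cells of a capture share a library preparation, and these values are given as a description. The correlations were not taken over all genes, so it is not known whether these counts are particular to the set.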

How the data were processed

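Full-length RNA of 367 single tdTomato-high wound cells was analysed, from 3 captures at PWD 12 and 2 each at PWD 15 and 21. The authors aligned the reads with Bowtie 1.0.0 to mm10 and GENCODE mouse release 13 and estimated expression with RSEM, and the deposited values are FPKM per gene and cell, without counts. RSEM shares reads between near-identical genes by estimation. The members, lists and tests were chosen with earlier results of these data known.

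Depth was inferred for each cell: on 9420 genes with 1 transcript, the spacing of low FPKM gives the worth of 1 fragment. Cells kept had no fewer estimated fragments than the minimum that the study's methods set for aligned reads, which is another measure. They also had no more than 11000 genes and a mitochondrial share of FPKM up to 15%. The scripts were tested on simulated data. No caller of doublets was run, since single cells were checked by microscopy per the methods. No pair of cells had identical columns. Positions come from GENCODE release 21 (GRCm38) and promoters from RefSeq.

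Means per capture and kind with at least 3 cells, as log2(mean FPKM + 1), were compared with limma 3.58.1 (R 4.3.3) with a variance trend, for genes averaging 1 FPKM or more. The capture was the block between kinds, since both means come from it. Adjusted p values are those of Benjamini and Hochberg over all genes, two-sided, with a threshold of 0.05, and a fold on this scale understates the change of low genes. Intervals of shares are exact and, like the floor of 3 counts, cover counting error only. The result of 1 of the other gene lists is not reported here. All 42 members are named, as are Col1a1, Rgs5, Tyrobp and, of each other list, up to 4 called genes or else the 2 most abundant. Acta2 is named as a reference of the rank correlations. Alternatives changed the pseudocount, filter, cells, scaling, summary over cells, variance trend, block, limits of the kinds and captures. The analysis used Python 3.11.15, numpy 2.4.6, pandas 2.3.3 and scipy 1.17.1.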

Additional observations from a re-analysis of the deposited data

Results flagged for a closer look

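A single value stood apart from the other captures. The within-capture difference of Palld (palladin, a scaffold of stress fibres) between mural and matrix cells was 0.70 in PWD 15 capture 1, and it was between -2.17 and -1.41 in the other 4 captures, a gap above Dixon's 95% critical value for 5 samples. Of 33 sets of captures examined in this way, 1 was flagged, and chance flags about 1 in 20. Palld did not pass the test between mural and matrix cells (difference -1.21, adjusted p = 0.304).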

How the results depend on the processing

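Between mural and matrix cells 4 members were called. The count was 2 without a filter on low values, 2 without the variance trend, 7 with means of log2 values over cells and 2 in the captures of PWD 12 alone, an alternative chosen after seeing the data, and it was 2 to 4 without any 1 capture. Between myeloid and matrix cells 5 were called, and 2 with a pseudocount of 10, 0 without a filter (24111 genes tested), 3 with all deposited cells, 3 with columns centred on the median, 11 with means of log2 values, 3 without the trend, 1 with at least 5 cells per capture and kind, and 1 to 3 without any 1 capture. With columns centred, Pfn1 joined Actb and Tmsb4x. Over all genes, 236 were called between mural and matrix cells and 19 without a filter, 657 with means of log2 values and 90 without the trend. For myeloid cells these were 861, 31, 942 and 708, and 154 with at least 5 cells. The cause was not tested. Between days 0 members were called under every alternative run.

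The capture as a block joins means of the same chip. Without the replicate block, 3 members were called in mural cells, Tmsb10 being lost (adjusted p = 0.0732), and 4 in myeloid cells. Between days the numbers did not pair captures, since deviations of same-numbered captures correlated between -0.0068 and 0.025, and with the capture number as a replicate block 0 members were called in each comparison.

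The difference of Actb between mural and matrix cells, -0.05, turned to 0.0416 with all deposited cells, to 0.27 with columns centred and to 0.11 and 0.00117 without PWD 12 capture 2 or 3, with a range of -0.17 to 0.11 without any 1 capture. Of 797 values of 47 member differences under alternatives, 719 kept their sign and side of the threshold, 55 lost and 19 gained a call and 4 changed sign. The 47 were those with an unadjusted p under 0.05 and that of Actb between mural and matrix cells. Most were not called at the main settings and had no call to lose. The lost calls were 20 among the 4 members called in mural cells, with 18 alternatives each. The other 35 were among the 5 called in myeloid cells, with 15 alternatives each. The files hold no counts, so depth was estimated, and cells could not be brought to a common depth. Captures held 3 to 11 myeloid cells, and a day had 2 or 3 captures.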

Other observations

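The 11 kept cells that met none of the 3 definitions, 5 of them with Col1a1 of at least 1000 FPKM and Rgs5 of at least 100 but under 500, belong to no comparison above. Actb was at 2152 to 20159 FPKM in them with a median of 4040, Tmsb4x at 122 to 2033 with a median of 610, and Tmsb10 at 92.9 to 1088 with a median of 364. Synpo2 was detected in 3 of the 11, with 9.34 FPKM as the highest value.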
